A study of Mus musculus with 10 samples.

Results

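The glutamine amidotransferases are the enzymes that take the amide nitrogen of glutamine and pass it to another molecule, and they are blocked by 6-diazo-5-oxo-L-norleucine. Their transcripts were followed in tumour-associated macrophages of mice that received JHU083, a prodrug of that inhibitor, or vehicle. The 10 genes chosen by name were Cad, Ctps, Ctps2, Ppat, Pfas, Gmps, Asns, Gfpt1, Gfpt2 and Nadsyn1, out of 46957 loci in each table, and each was found at 1 locus. The Pfas locus also lists the microRNA gene Mir3062, which lies inside it. All samples came from Balb/cJ mice carrying tumours of 4T1 cells, a murine breast cancer line, placed in the mammary fat pad. Control mice received PBS, and treated mice received JHU083 at 1 mg/kg from day 7 to day 13. In both groups the tumours were taken on day 14, and live CD45+ CD11b+ F4/80+ cells without CD8, Ly6C or Ly6G were sorted. Each group had 5 samples. The labels give neither the age nor the sex of the mice, and they do not say whether a sample is 1 mouse or a pool, so p-values measure the spread between these samples.

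In these enzymes a glutaminase part releases ammonia from glutamine at a catalytic cysteine, and the ammonia is then used by a synthase part of the same protein. 6-diazo-5-oxo-L-norleucine is a glutamine analogue that binds that cysteine covalently. The family feeds several pathways: Cad, Ctps and Ctps2 serve pyrimidine synthesis, Ppat, Pfas and Gmps serve purine synthesis, Asns makes asparagine, Gfpt1 and Gfpt2 open the hexosamine pathway, and Nadsyn1 completes NAD. Proliferating cells draw heavily on the nucleotide branches, while hexosamines are needed for glycosylation in most cells. RNA was measured here, and enzyme activity was not.

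Of the 10 genes, 9 had enough fragments to be tested and Gfpt2 did not. Transcripts of 5 were lower in the JHU083 samples (Cad, Ctps, Pfas, Nadsyn1 and Ppat) and 1 was higher (Ctps2), by the quasi-likelihood test of edgeR at an adjusted p under 0.05. Cad, Ctps and Pfas had log2 fold changes of -1.06, -1.0 and -0.94, whereas Ctps2 rose by 0.54; differences between these falls were not tested. The differences of Gmps, Gfpt1 and Asns did not pass the test. Among all 12501 loci tested, 36.7% passed the same threshold, 18.3% lower and 18.4% higher in JHU083. The median log2 fold change was -0.39 over the 9 tested genes and 0.01 over all loci. The groups did not overlap for 5 of the 9 genes, against 22.3% of all loci. A log2 fold change of -0.9 or lower with an adjusted p under 0.05 was found for 5.69% of loci. A change at least as low as that of Ctps was called for 4.85% of loci, and one at least as low as that of Cad for 4.44%.

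**Figure D1:**
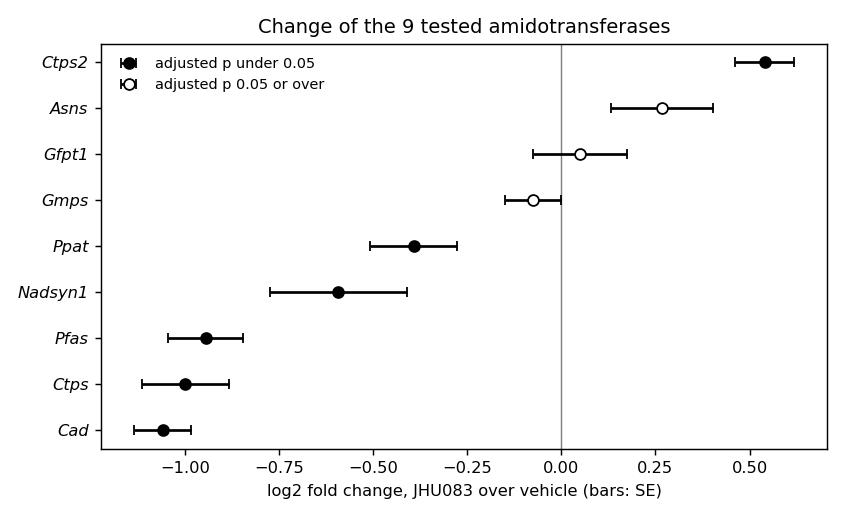
Log2 fold change of JHU083 over vehicle for the 9 tested genes (horizontal axis), with bars of 1 standard error; filled points have an edgeR adjusted p under 0.05. Cad, Ctps and Pfas lie near -1, Nadsyn1 and Ppat between them and 0, and Ctps2 alone lies to the right with a filled point.

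The libraries held 11147870 to 14575932 fragments in the vehicle group and 13638381 to 15740701 in the JHU083 group. A pair of ribosomal RNA loci, Rn18s-rs5 and Gm42418, had a listed value of 0 in 5 samples, namely vehicle replicates 2, 4 and 5 and JHU083 replicates 1 and 3. With scaling to library size alone, 1564 loci were higher and 3141 lower, in place of 2296 and 2293. The sorted antigens were present in every sample, with Adgre1 (F4/80) at 539 to 625 CPM in vehicle and 893 to 986 CPM in JHU083, where CPM is the fragment count scaled to the size of the library. Itgam (CD11b) and Ptprc (CD45) had log2 fold changes of 0.03 and 0.30 and did not pass. Of 9 macrophage markers 3 rose, namely Adgre1 (0.63), Csf1r (0.51) and Mertk (0.97), and the other 6 did not pass, from Fcgr1 at -0.21 to Ptprc. Of the antigens gated out, Cd8a had at most 6 fragments in any sample, Ly6g at most 2, and Ly6c2 had 5 to 13 in vehicle and 0 to 11 in JHU083. Some marker transcripts of other cell types were lower in JHU083 and some were higher, and their counts and those of cell cycle genes stand against 18.3% of all loci lower and 18.4% higher. The summed level of 11 tumour epithelial markers was 303 to 661 CPM in vehicle and 104 to 221 in JHU083, and all 10 that could be tested fell. Among them Cldn7 and Esrp1, at means of 0.476 and 0.676 CPM in JHU083, passed the filter through their vehicle counts. Of 7 fibroblast markers 5 fell, from a summed 103 to 226 CPM in vehicle to 25.9 to 115 in JHU083. Of 4 tested endothelial markers only Pecam1 fell, from a mean of 150.5 to 52.55 CPM, and it made up most of their summed level of 126 to 214 CPM in vehicle and 37.0 to 88.3 in JHU083; Cdh5, Kdr and Vwf had log2 fold changes of -0.49, -0.15 and -0.01 and did not pass. The summed level of 8 T and NK cell markers was 27.3 to 29.9 CPM in vehicle and 37.2 to 54.7 in JHU083. Only 2 of them could be tested. Cd4 rose by 1.11 on the log2 scale, from a mean of 14.7 to 31.8 CPM, and made up most of the rise in the sum. Klrb1c, at means of 11.9 and 9.13 CPM, did not pass. Of 3 tested eosinophil markers Siglecf rose by 0.89, while Ccr3 (0.29) and Prg2 (0.81) did not pass (summed level 3.68 to 10.6 CPM and 6.64 to 17.5). Cd79b, of the B cell list, rose by 0.51 (summed level 2.72 to 3.77 CPM and 3.47 to 5.14). Among 6 tested neutrophil markers Csf3r rose by 0.53, and S100a8 and S100a9 fell by 1.40 and 2.18 (summed level 98.4 to 111 CPM and 98.6 to 151). Cell cycle transcripts were lower as well: 22 of 25 genes fell, from Plk1 at -1.68 to Kif11 at -0.58, with a median log2 fold change of -1.17 and a summed level of 1476 to 1841 CPM in vehicle and 819 to 999 in JHU083. In such sorted bulk samples fewer cells of a type and less RNA per cell cannot be told apart.

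For the genes below, the 300 bases around the annotated start of transcription were read from RefSeq (GRCm38.p6), and the table used gave 12 windows for 9 of the 10 genes. They run from 250 bases before the start to 50 after it, and they are shown for Cad and Ctps, which fell, for their pathway neighbour Ctps2, which rose, for Ppat, whose start overlaps that of Paics, and for Asns, a known ATF4 target. Capitals mark matches on either strand to GGGCGG, the GC box bound by Sp1, and to TGATGNAA, the core of the element bound by ATF4. None of the 12 windows held CACGTG, the E-box bound by MYC, or TTTNGCGC, 1 form of the core bound by E2F factors. Other forms of that core were not searched for. Sites farther than 250 bases before a start or 50 bases after it were not searched for either. These windows therefore cannot show that a gene lacks such sites. Of 32851 windows of the same length, 35.7% held GGGCGG, 3.97% TGATGNAA, 7.15% CACGTG and 1.38% TTTNGCGC.
Cad (chr5:31054530-31054829, plus strand): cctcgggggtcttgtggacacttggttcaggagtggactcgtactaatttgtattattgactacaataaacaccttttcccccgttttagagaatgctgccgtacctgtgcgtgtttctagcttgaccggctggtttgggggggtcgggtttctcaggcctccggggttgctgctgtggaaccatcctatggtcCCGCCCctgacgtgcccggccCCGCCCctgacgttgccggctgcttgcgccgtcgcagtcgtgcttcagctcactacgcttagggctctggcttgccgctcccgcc
Ctps (chr4:120570227-120570526, minus strand): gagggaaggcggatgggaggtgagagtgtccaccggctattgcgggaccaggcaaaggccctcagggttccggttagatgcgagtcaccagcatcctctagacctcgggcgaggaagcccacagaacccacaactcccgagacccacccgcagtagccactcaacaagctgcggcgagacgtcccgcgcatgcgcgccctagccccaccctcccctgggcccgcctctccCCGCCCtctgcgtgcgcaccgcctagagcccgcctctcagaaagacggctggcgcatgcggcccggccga
Ctps2 (chrX:162901310-162901609, plus strand): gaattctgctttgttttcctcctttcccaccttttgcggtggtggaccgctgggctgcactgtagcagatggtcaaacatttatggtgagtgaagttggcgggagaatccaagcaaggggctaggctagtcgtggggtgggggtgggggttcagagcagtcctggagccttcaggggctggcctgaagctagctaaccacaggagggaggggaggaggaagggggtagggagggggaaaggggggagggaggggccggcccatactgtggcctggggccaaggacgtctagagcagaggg
Ppat (chr5:76951529-76951828, minus strand): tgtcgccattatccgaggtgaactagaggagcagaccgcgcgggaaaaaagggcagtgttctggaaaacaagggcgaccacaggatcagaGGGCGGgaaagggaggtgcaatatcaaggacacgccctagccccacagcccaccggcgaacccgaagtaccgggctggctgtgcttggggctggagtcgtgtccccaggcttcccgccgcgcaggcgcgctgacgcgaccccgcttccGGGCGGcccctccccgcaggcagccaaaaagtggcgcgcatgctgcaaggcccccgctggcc
Asns (chr6:7693160-7693459, minus strand): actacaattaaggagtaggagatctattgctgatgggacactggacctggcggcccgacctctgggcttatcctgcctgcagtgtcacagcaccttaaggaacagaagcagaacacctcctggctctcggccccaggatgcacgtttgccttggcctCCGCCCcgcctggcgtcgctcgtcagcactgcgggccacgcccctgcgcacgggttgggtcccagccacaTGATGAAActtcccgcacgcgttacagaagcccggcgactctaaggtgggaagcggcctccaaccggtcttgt
The Cad window holds GGGCGG 56 and 35 bases before the start, and the Ctps window shown holds it 20 bases before. The other Ctps window (chr4:120569410-120569709) held none of the 4 motifs. None of the 3 windows of Ctps2 held any of the 4 motifs. Of the 9 genes with windows, 8 held GGGCGG in at least 1 of them. Counted by window, as for the 35.7% above, 8 of the 12 held it. A match is a description of these letters and says nothing of which factor was bound.

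Cad encodes the multifunctional protein that carries out the opening steps of pyrimidine synthesis, starting with carbamoyl phosphate synthesis from glutamine. The gene lies on chromosome 5 from 31054780 to 31078479 in GENCODE M21 (GRCm38) and has 14 annotated transcripts. Vehicle replicates 1 to 5 had 65.1, 60.2, 60.1, 53.8 and 63.3 CPM. JHU083 replicates 1 to 5 had 28.2, 30.7, 28.9, 29.7 and 27.8 CPM. Every treated sample was below every control sample, and the treated samples lay close together. Such a separation with the treated samples lower was found for 11.1% of all loci. Mean Cad was 60.5 ± 4.32 CPM in vehicle against 29.0 ± 1.17 in JHU083 (SD, n = 5). Its log2 fold change was -1.06 ± 0.08 (SE, edgeR adjusted p = 8.37e-07). Cad rested on 387 to 959 fragments per sample.

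CTP synthase makes CTP from UTP with the nitrogen of glutamine, and mice have 2 genes for it, Ctps and Ctps2. Ctps (chromosome 4, 120539868 to 120570276) had 27.2, 22.1, 25.1, 19.1 and 26.0 CPM in vehicle replicates 1 to 5. In JHU083 replicates 1 to 5 it had 11.1, 11.04, 12.7, 11.01 and 13.9 CPM. The groups did not overlap. Mean Ctps was 23.9 ± 3.26 CPM in vehicle against 12.0 ± 1.30 in JHU083 (SD, n = 5). Its log2 fold change was -1.0 ± 0.12 (SE, edgeR adjusted p = 2.5e-05).

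Ctps2 moved the other way. It lies on chromosome X from 162901238 to 163032508, and S100g lies on the opposite strand within it without overlapping its exons. Vehicle replicates 1 to 5 had 22.1, 20.7, 21.4, 20.1 and 18.6 CPM, and JHU083 replicates 1 to 5 had 29.0, 28.3, 29.5, 31.7 and 31.0 CPM. All treated samples were above all control samples. Mean Ctps2 was 20.6 ± 1.34 CPM in vehicle against 29.9 ± 1.40 in JHU083 (SD, n = 5). Its log2 fold change was 0.54 ± 0.08 (SE, edgeR adjusted p = 0.000174). Complete separation with the treated samples higher was found for 11.2% of all loci.

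The size of the shift between the CTP synthase genes was taken as the log2 ratio of Ctps over Ctps2 within each sample. The ratio was 0.30, 0.09, 0.23, -0.07 and 0.48 in vehicle replicates 1 to 5. It was -1.37, -1.35, -1.20, -1.51 and -1.15 in JHU083 replicates 1 to 5. The mean difference was -1.52 ± 0.11 (SE, n = 5 per group), with all treated samples below all control samples. The permutation test (exact, two-sided, 5 against 5 samples) gave p = 0.0079, the smallest value it can give, and 0.0238 after Benjamini-Hochberg adjustment over the 3 ratios tested. Since Ctps was lower and Ctps2 higher in every treated sample than in any control, the ratio had to separate and this p restates those separations. On the linear scale of CPM, Ctps stood at 1.16 ± 0.17 times Ctps2 in vehicle and at 0.40 ± 0.04 times in JHU083 (SD, n = 5).

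**Figure D2:**
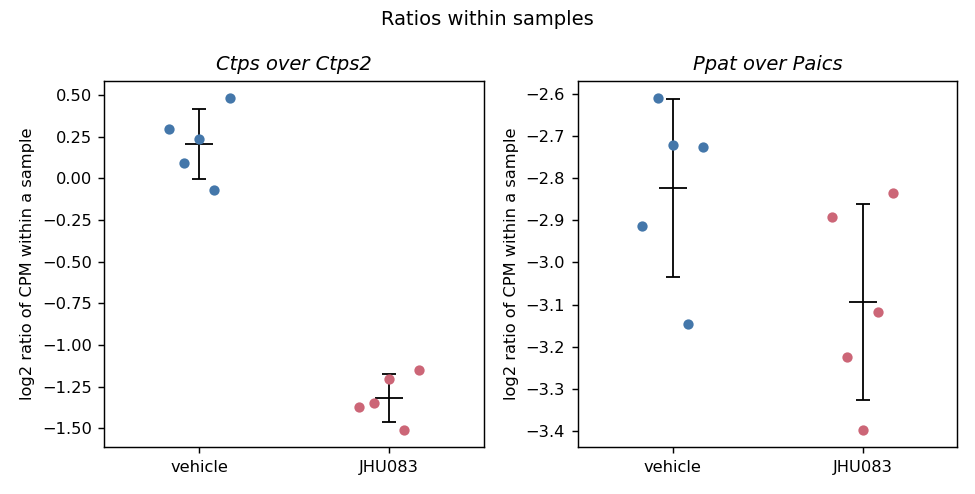
Log2 ratio of CPM within each sample (vertical axis) for Ctps over Ctps2 and for Ppat over Paics; points are samples, and the line and bars are the mean and SD of 5 samples. The Ctps over Ctps2 ratio lies between -0.07 and 0.48 in vehicle and between -1.51 and -1.15 in JHU083, while the Ppat over Paics ratios of the groups overlap.

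By the lengths behind the deposited normalized values, Ctps2 was the larger part of the CTP synthase transcripts already in the controls. In the deposited normalized values, which were taken as FPKM (fragment counts scaled by transcript length and library size), Ctps2 made up 60.4% to 69.99% of the sum of both genes in vehicle and 83.1% to 87.1% in JHU083. The sum itself was 26.0 ± 1.68 FPKM in vehicle and 29.9 ± 1.67 in JHU083 (SD, n = 5). The lowest treated sample, at 27.5, was just under the highest control, at 27.8. On fragments, which are not scaled by length, the sum leaned the other way, at 39.2 to 49.2 CPM in vehicle (44.4 ± 3.78) and 39.3 to 44.9 in JHU083 (41.9 ± 2.21; SD, n = 5), with overlapping groups. The direction of the summed level therefore depends on the scale, and no test of the sum was made. The share of Ctps2 depends on the scale too, since on fragments Ctps stood at 1.16 ± 0.17 times Ctps2 in vehicle (SD). The deposited count over FPKM, which is proportional to the length used, was 14.8 to 16.8 for Ctps2 and 33.1 to 36.7 for Ctps. Whether so short a length fits the Ctps2 transcripts present was not tested.

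Ppat catalyses the committed step of purine synthesis. It lies on chromosome 5 from 76913249 to 76951578 on the minus strand, and Paics, which acts later in the same pathway, starts 271 bases inside it on the opposite strand, so that the 2 transcripts share 266 bases at their starts. The libraries were not described as keeping strand, and fragments from that overlap cannot be assigned to one gene. Ppat had 21.6, 23.8, 23.6, 16.9 and 20.7 CPM in vehicle replicates 1 to 5 and 17.5, 14.2, 14.2, 16.7 and 18.6 CPM in JHU083 replicates 1 to 5. Vehicle replicate 4 lay inside the range of the treated samples, and 3 treated samples were below every control. Mean Ppat was 21.3 ± 2.81 CPM in vehicle against 16.2 ± 2.0 in JHU083 (SD, n = 5), and its log2 fold change was -0.39 ± 0.12 (SE, edgeR adjusted p = 0.0172). The call was lost with the replicate number as a block (-0.39, edgeR adjusted p = 0.0574).

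Paics had 151 ± 9.84 CPM in vehicle and 139 ± 8.78 in JHU083 (SD, n = 5), a difference that did not pass the test (log2 fold change -0.12 ± 0.07, SE, edgeR adjusted p = 0.206). The log2 ratio of Ppat over Paics was -2.82 ± 0.21 in vehicle and -3.09 ± 0.23 in JHU083 (SD, n = 5). The difference of -0.27 ± 0.14 (SE) was not past the threshold by the two-sided exact permutation test (p = 0.0952, adjusted p = 0.143). The Ppat window printed above holds GGGCGG 160 and 12 bases before the Ppat start, and the window of Paics holds CACGTG 203 bases before its own start. From FPKM, whose length factor varied from 45.8 to 55.5 for Ppat, the same ratio differed by -0.35 and passed (exact permutation, adjusted p = 0.0357).

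Pfas makes formylglycinamidine ribonucleotide, a later glutamine-dependent step of purine synthesis. Its locus (chromosome 11, 68985697 to 69008460, minus strand) had 19.5, 22.3, 20.1, 21.5 and 22.5 CPM in vehicle replicates 1 to 5 and 11.8, 12.8, 10.1, 10.2 and 10.2 CPM in JHU083 replicates 1 to 5. The lowest control was well above the highest treated sample. The locus mean was 21.2 ± 1.32 CPM in vehicle against 11 ± 1.21 in JHU083 (SD, n = 5), and the log2 fold change was -0.94 ± 0.10 (SE, edgeR adjusted p = 1.42e-05). Whether this fall differs from that of Ppat, at the committed step, was not tested.

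Gmps, which makes GMP from XMP, is the last amidotransferase of the purine branch. It lies on chromosome 3 from 63976106 to 64022579 with 1 annotated transcript. Its level was 45.0 to 55.9 CPM in vehicle and 46.1 to 50.2 CPM in JHU083, so the treated samples lay within the range of the controls. The means were 50.7 ± 3.96 and 48.2 ± 1.60 CPM (SD, n = 5), and the log2 fold change of -0.07 ± 0.07 did not pass the test (SE, edgeR adjusted p = 0.455). Gmps had 597 to 824 fragments per sample, more than Pfas with 133 to 293.

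**Figure D3:**
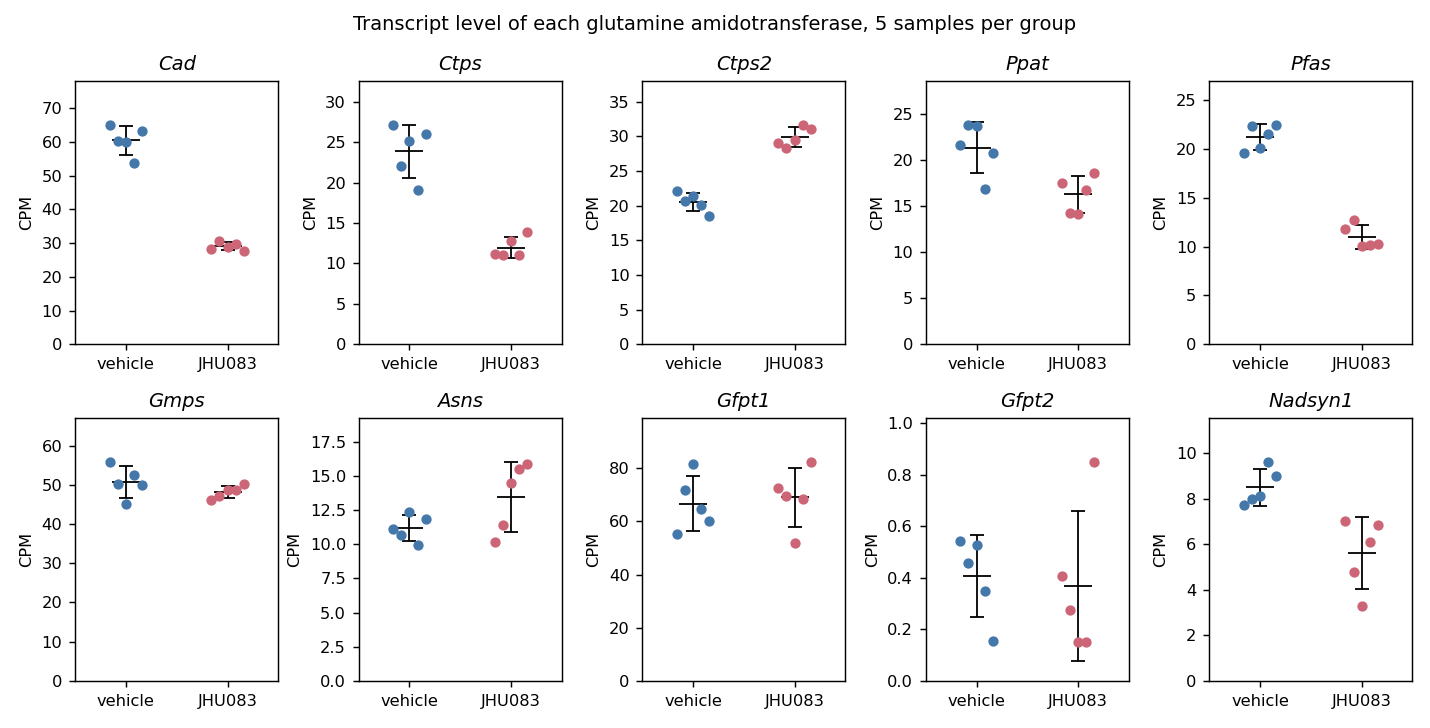
CPM of each of the 10 genes (vertical axes, each from 0) in the 5 vehicle and 5 JHU083 samples; the line and bars are mean and SD. The groups separate for Cad, Ctps, Pfas and Nadsyn1, which are lower in JHU083, and for Ctps2, which is higher; they overlap for the other 5 genes.

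Asns, asparagine synthetase, is a well-known target of the transcription factor ATF4. It lies on chromosome 6 from 7675169 to 7693254, and its window above is the only one of the 12 with TGATGNAA, which begins 23 bases before the start. Asns had 11.1, 10.7, 12.4, 9.90 and 11.8 CPM in vehicle replicates 1 to 5 and 10.2, 11.4, 14.5, 15.5 and 15.8 CPM in JHU083 replicates 1 to 5. JHU083 replicates 3, 4 and 5 were above every control, and replicates 1 and 2 lay among them. The log2 fold change of 0.27 ± 0.13 did not pass the test (SE, edgeR adjusted p = 0.134). Without JHU083 replicate 1 it was 0.35 and passed (edgeR adjusted p = 0.0421), and over the other 9 fits that each left out 1 sample it did not.

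The hexosamine pathway begins with glutamine:fructose-6-phosphate transaminase, encoded by Gfpt1 and Gfpt2. Gfpt1 (chromosome 6, 87042846 to 87092197) ranged from 55.5 to 81.6 CPM in vehicle and from 51.8 to 82.5 CPM in JHU083, and the groups overlapped almost fully. The log2 fold change was 0.05 ± 0.12 (SE, edgeR adjusted p = 0.781). Gfpt2 (chromosome 11, 49794178 to 49838613) had only 2 to 13 fragments per sample, or 0.157 to 0.543 CPM in vehicle and 0.149 to 0.851 CPM in JHU083, and was below the level that could be tested. A count of 0 allows up to 0.191 to 0.269 CPM at these depths, counting error only, so some Gfpt2 values are near the limit of detection. The log2 ratio of Gfpt1 over Gfpt2 averaged 6.96 ± 0.46 among controls and 7.22 ± 0.55 among treated samples (SD; p = 0.468 by exact permutation, adjusted p = 0.468), and it is limited by the few Gfpt2 fragments.

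Nadsyn1, NAD synthetase, makes NAD from its acid form. It lies on chromosome 7 from 143795584 to 143822849. Vehicle replicates 1 to 5 had 7.74, 8.00, 8.15, 9.64 and 9.002 CPM, and JHU083 replicates 1 to 5 had 7.02, 4.80, 3.28, 6.12 and 6.88 CPM. All treated samples were below all controls, with JHU083 replicate 3 the lowest and replicate 1 just under the lowest control. This separation depends on the scale: in FPKM, JHU083 replicate 1 (3.16) was above vehicle replicate 1 (3.02), and the groups of Ppat, which overlap in CPM, did not. Mean Nadsyn1 was 8.51 ± 0.79 CPM in vehicle against 5.62 ± 1.58 in JHU083 (SD, n = 5), and its log2 fold change was -0.59 ± 0.18 (SE, edgeR adjusted p = 0.0209). The gene rested on 44 to 115 fragments per sample. Its call was lost without vehicle replicate 4 (-0.55, edgeR adjusted p = 0.0512) and without JHU083 replicate 2 (-0.54, adjusted p = 0.0518).

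The level per length differed widely between the genes. The length behind FPKM was nearly constant between samples for Gmps and Gfpt2. It varied for the other 8 genes, most for Asns, Cad and Pfas and least for Ctps and Ctps2, which limits the order among them. The order also rests on the size of the assigned lengths, and whether these fit the transcripts present was not tested. In vehicle the order of mean FPKM was Ctps2 (17.0 ± 0.68), Gfpt1 (12.6 ± 3.19), Cad (11.5 ± 2.18), Ctps (9.01 ± 1.43), Asns (6.87 ± 1.63), Gmps (5.89 ± 0.44), Ppat (5.88 ± 0.83), Pfas (4.07 ± 0.72), Nadsyn1 (3.798 ± 0.57) and Gfpt2 (0.136 ± 0.05; all SD, n = 5). Each gene overlapped in range with its neighbour in this order, except that Nadsyn1 was above Gfpt2 in every sample without overlap. In JHU083, Ctps2 stood at 25.4 ± 1.70 FPKM, above Gfpt1 at 12.7 ± 2.40 (SD, n = 5) with no overlap. Asns at 9.57 ± 3.75 came next and Cad had dropped to 5.57 ± 0.76, beside Gmps at 5.62 ± 0.17 (SD, n = 5), with overlapping ranges. At the low end of the treated samples Pfas, at 1.80 ± 0.32, was below Nadsyn1, at 2.37 ± 0.77 (SD, n = 5), again with overlap.

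**Figure D4:**
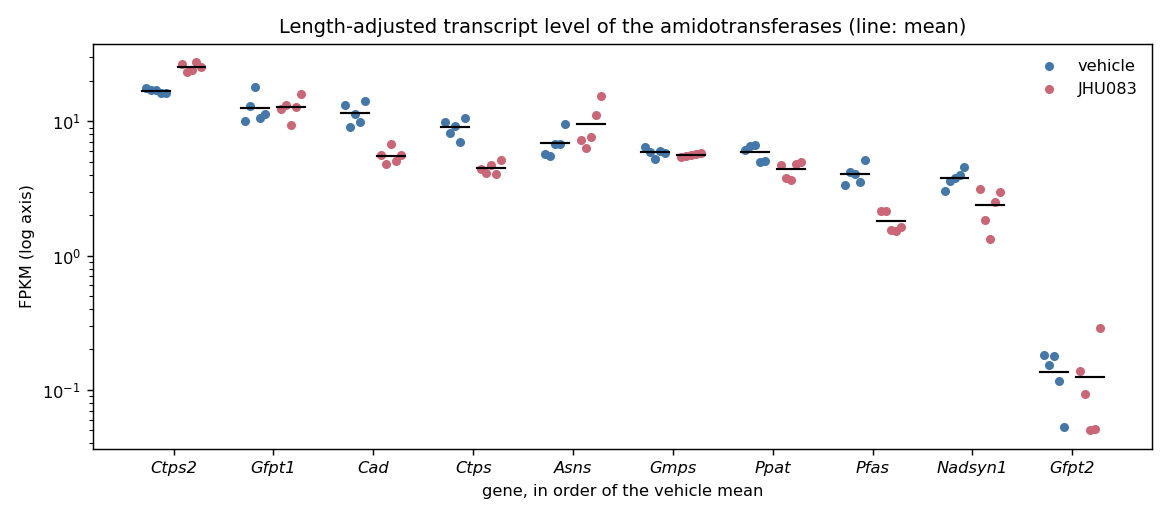
FPKM of the 10 genes on a log axis, ordered by the vehicle mean; points are the 5 samples of each group and lines are group means. On this scale, which rests on the assigned lengths, Ctps2 leads in both groups and is farther from the rest in JHU083. Gfpt2 lies well below the other 9 genes.

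The libraries with Rn18s-rs5 and Gm42418 listed at 0 (3 vehicle and 2 JHU083 samples) and the others (2 and 3) were also compared separately. Cad, Ctps, Pfas and Ctps2 kept their call in both sets, with edgeR log2 fold changes for Pfas of -1.01 and -0.84. The changes of Nadsyn1 (-0.78 and -0.42) and Ppat (-0.37 and -0.45) kept their sign but did not pass in either, where 532 and 586 loci, or 1334 and 1518, were called higher and lower. With this status as a covariate in all 10 samples, all 6 calls stood. The part of the cell cycle transcripts and of the other cell types' markers, tumour epithelial ones included, in these results was not tested.

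The other enzymes of the same pathways were read from lists, whose counts stand against the 36.7% of all loci called in either direction. The shares called for purine synthesis, pyrimidine synthesis, hexosamine, asparagine, NAD synthesis and other glutamine-using genes were near that background or rest on few genes, and are not a result about those lists. Of 10 other genes of purine synthesis, all tested, 3 fell and 1 rose. Atic, which closes the purine ring, had the largest fall, at -0.51 ± 0.09 on the log2 scale (SE, edgeR adjusted p = 0.000747), and Gart and Impdh2 fell by 0.37 and 0.34. Prps2, which makes the ribose substrate of Ppat, rose by 0.23 ± 0.08 (SE, adjusted p = 0.0374). The median log2 fold change of the list was -0.08.

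In pyrimidine synthesis 3 of 7 other loci fell and none rose, where 18.3% of all loci were lower. These were the deoxynucleotide enzymes Rrm2 (-1.002 ± 0.12), Tyms (-0.99 ± 0.09) and Rrm1 (-0.92 ± 0.09; log2 fold change ± SE, edgeR adjusted p of 2.33e-05, 4.81e-06 and 1.12e-05). Rrm2 also stands in the cell cycle list. Dhodh and Umps, which follow Cad in UMP synthesis, had log2 fold changes of -0.12 and -0.24 and did not pass (edgeR adjusted p = 0.482 and 0.059). The steps of these pathways plotted in order show that the glutamine-dependent ones do not all move together.

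**Figure D5:**
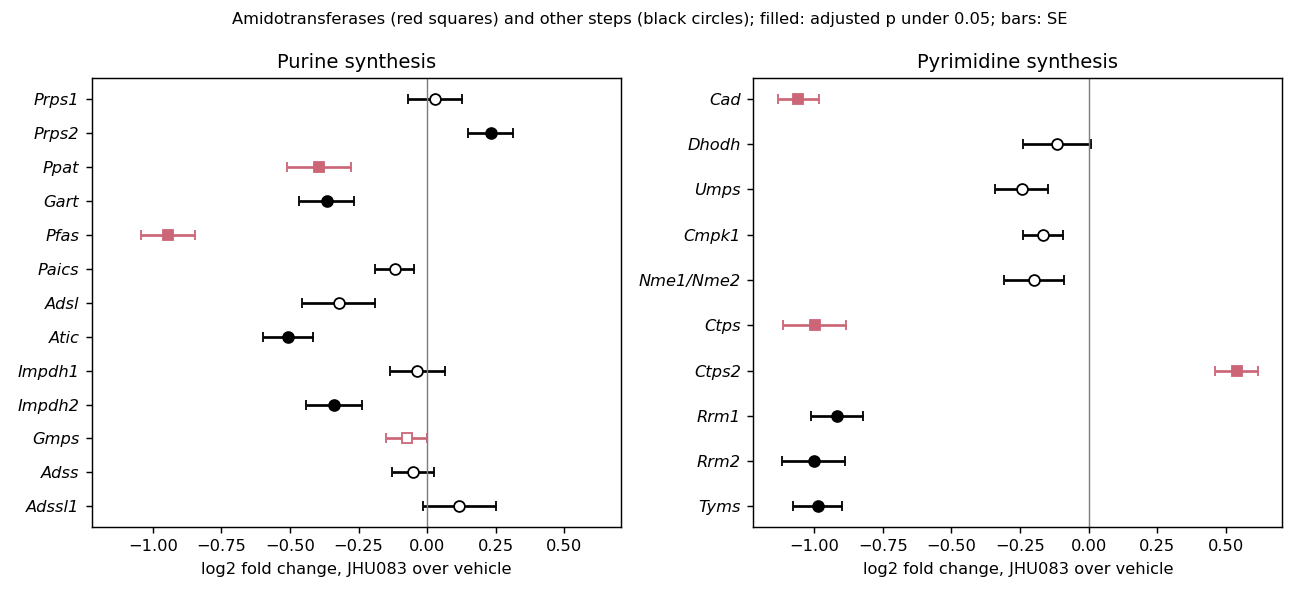
Log2 fold change of JHU083 over vehicle (horizontal axis, bars of 1 SE) for purine and pyrimidine genes in pathway order; red squares are amidotransferases, black circles other genes, and filled symbols have an edgeR adjusted p under 0.05. Pfas, Cad and Ctps stand near -1 with Rrm1, Rrm2 and Tyms, while Gmps and Dhodh lie near 0 and Ctps2 lies at 0.54.

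Nucleotide salvage was tested at 13 of 15 listed genes, of which 6 fell and 1 rose, against 18.3% and 18.4% of all loci. Upp1, uridine phosphorylase, fell most: it had 8.31 ± 1.34 CPM in vehicle against 2.13 ± 0.81 in JHU083 (SD, n = 5), and its log2 fold change was -1.97 ± 0.23 (SE, edgeR adjusted p = 2.26e-05). Tk2, the mitochondrial thymidine kinase, rose by 0.36 ± 0.09 (SE, adjusted p = 0.00472). Of 10 other hexosamine genes 3 rose and 1 fell, from Gnpda2 at 0.61 ± 0.12 (SE, adjusted p = 0.0014) to Gnpnat1 at -0.33 ± 0.11 (SE, adjusted p = 0.0315). Gnpda2 works against Gfpt1, since it returns glucosamine 6-phosphate to fructose 6-phosphate.

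Around asparagine, 1 of 5 tested genes rose (Nars, asparaginyl-tRNA synthetase, 0.21 ± 0.06) and 1 fell (Got2, which makes aspartate in mitochondria, -0.37 ± 0.08; SE, edgeR adjusted p of 0.0197 and 0.00325). Of 12 tested genes of NAD synthesis, 2 rose and 2 fell, and Nmnat2, among those that fell, was tested only because of its vehicle counts. Nmnat3, an adenylyltransferase acting just before Nadsyn1 in the pathway, rose by 0.65 ± 0.14 (SE, adjusted p = 0.00311). Nmnat2, of the same family, had 10 to 26 fragments in each vehicle library and 1 fragment in all JHU083 libraries together, a ratio of 0.0112 (95% exact interval 0.000281 to 0.0643, counting error only). The locus passed the filter only through its vehicle counts, so a fall was the only change it could show. Of 6 other glutamine-using genes, 2 rose, among them Gatc at 0.40 ± 0.12 (SE, adjusted p = 0.0193), and 1 fell, the scarce glutaminase gene Gls2 (-0.97 ± 0.36, SE, adjusted p = 0.0487). Some of these list calls were close to the threshold: over the other settings tried, Prps2 lost its call in 17, Gls2 in 16, Gnpnat1 in 13, and Gatc and Nars in 6 each.

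Transcription factors known to act on these genes were measured too. Mean Myc was 50.4 ± 10.1 CPM in vehicle against 27.3 ± 3.83 in JHU083 (SD, n = 5), and its log2 fold change was -0.88 ± 0.14 (SE, edgeR adjusted p = 0.000256), and it alone of 5 genes of the MYC network passed. Of 13 tested genes of the ATF4 list, 3 rose and 4 fell, where 36.7% of all loci were called. Atf4 itself rose by 0.29 ± 0.08 (SE, edgeR adjusted p = 0.0109). Atf5 rose by 0.46 ± 0.10 (SE, adjusted p = 0.00238) and Psat1, a serine synthesis enzyme, fell by 1.15 ± 0.10 (SE, adjusted p = 3.02e-06). Asns, which belongs with these targets, stood between them with its 0.27.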

How the data were processed

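RNA of 10 sorted samples was sequenced by the submitters, paired-end on an Illumina instrument per the series' design text, from poly(A)-selected libraries per the labels' protocols. The submitters' processing notes name bcl2fastq 2.17.1.14, FastQC 0.11.2, TopHat2 2.1.1 and GRCm38; the counting program and annotation are not given in the sources used here. Per the file headers the authors deposited raw counts, but these expected counts are not whole. In each sample they are multiples of 1 step (0.888 to 1.17); dividing by it gave whole numbers, within 0.05, for 99.8% to 100% of positive values, and the rounded quotients were used as fragment counts. The second column the authors deposited is headed only as normalized and was taken as FPKM, since scaled count over FPKM varied by a median CV of 0.14% over samples for 529 loci with 1 transcript and at least 100 fragments in every sample; over all 8187 loci with such counts the median was 3.16%.

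Samples were grouped by title. Loci were filtered with filterByExpr, scaled with TMM and tested with edgeR 4.0.16 (R 4.3.3; quasi-likelihood F-test, Benjamini-Hochberg over all loci tested, threshold 0.05). CPM uses TMM-scaled library sizes, and ratios have a prior count of 2. The standard error of a fold change is its size over the square root of F. On simulated counts of 12501 genes with 200 changed by 1 on the log2 scale, edgeR recovered 80.5% with 8% false calls, above the nominal 0.05. Far fewer genes changed there than the 36.7% called here, and all by the same size. The simulation therefore does not give the error rates in these data. Alternatives used DESeq2 1.42.0 and limma 3.58.1. Python 3.11.15, scipy 1.17.1 and BLAST 2.17.0 served the other steps. At 95% identity over 150 bases, transcripts of Ctps and Gmps matched pseudogenes that had 0 fragments, and Ppat matched Paics.

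The genes, lists and tests were chosen with earlier results of these data known. All 10 members were named, and from each pathway list, marker lists aside, the called genes with the lowest and highest fold change; further list genes were named after their values were seen. Positions are from GENCODE M21, which may not be the authors' annotation.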

Additional observations from a re-analysis of the deposited data

How the results depend on the processing

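Of 233 values of single amidotransferases under other settings, 219 kept direction and side of the threshold, 9 lost the call (Nadsyn1 and Ppat), 1 gained it (Asns) and 4 changed sign, all for Gfpt1. Gfpt1 was -0.031 with library-size scaling, -0.072 in the samples with ribosomal loci listed at 0, and from -0.019 to 0.139 with 1 sample left out. Cad, Ctps, Ctps2 and Pfas kept their call under every setting in which they were tested; Pfas was not tested among loci listing 1 symbol. The number of amidotransferases lower was 3 in place of 5 in each set of samples split by the ribosomal loci, where 532 and 586 loci in all (listed at 0) and 1334 and 1518 (others) were higher and lower. It was also 3 with limma on log2(FPKM + 0.1) without a filter, with 1450 and 1467 loci. Those sets hold fewer samples, and the unfiltered fit tests more loci. With 1 sample left out, 4 to 5 amidotransferases were lower and 1 to 2 higher, and over all loci 1823 to 2895 were higher and 1899 to 2929 lower. The ratio of Ppat over Paics from FPKM was -0.352 and passed; the cause was not tested.

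Samples sharing a replicate number did not move together: their deviations from the group means correlated at -0.569 to 0.0911, so the numbers were not taken to pair the samples. With the replicate block, 1612 loci were higher and 1757 lower, and Ppat lost its call. The Ctps over Ctps2 ratio kept its difference of -1.524 but not its call (exact sign-flip test, adjusted p = 0.1875), since 5 pairs cannot give a smaller p than 0.0625. Gfpt2, with 2 to 13 fragments a sample, was tested only without a filter and was not called; at this depth a small difference would not be detectable.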

Other observations

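After subtracting the group means, the genes closest to each amidotransferase across the 10 samples differed from gene to gene. They were looked for among 6645 loci that list 1 symbol and have a mean log2 CPM of at least 4, for the 6 amidotransferases at that level. These correlations rest on 10 points that share library and scaling, and the highest of 6645 values is high by selection, so they are descriptions only. Ctps was closest to Mcmbp (r = 0.92) and Zwint (0.88), and Cad to Polr3b (0.91) and Kpnb1 (0.90). Ctps2 was closest to Spast (0.98) and Ufm1 (0.95), Gfpt1 to Wac (0.99) and Osbpl8 (0.98), Ppat to Ubqln1 (0.93) and Rab7b (0.92), and Gmps to Rabggta (0.87) and Gpn1 (0.86). Between pairs of the tested amidotransferases r ranged from -0.749 (Pfas and Asns) and -0.747 (Pfas and Ctps2) to 0.636 (Gfpt1 and Nadsyn1), with Cad and Ctps at 0.478 and Ctps and Ctps2 at 0.237.

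The deposited scaled count over FPKM, which is proportional to the transcript length the authors' program assigned, varied between samples for some of these genes. For Gmps and Gfpt2 it was nearly constant, at 116 and 40.2 to 40.3. It ranged from 14.0 to 26.3 for Asns, from 57.5 to 90.1 for Cad, from 58.6 to 91.0 for Pfas, from 26.5 to 35.7 for Nadsyn1, from 61.5 to 81.8 for Gfpt1, from 45.8 to 55.5 for Ppat, from 14.8 to 16.8 for Ctps2 and from 33.1 to 36.7 for Ctps, so the FPKM of those genes also carries a changing length. For Asns the log2 fold change was 0.42 from FPKM (limma, adjusted p = 0.192) and 0.27 from fragments, for Pfas it was -1.14 (limma, adjusted p = 0.000453) and -0.94, and for Cad it was -1.03 (limma, adjusted p = 0.000322) and -1.06. The source of these length changes was not tested.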
